A study of Mus musculus with 8 samples.

Results

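The LPS response of wild-type (WT) mouse dendritic cells was read from RNA-seq counts, by comparing the 2 libraries of cells treated with LPS with the 2 libraries of cells left at steady state. These are the 4 WT libraries of a series of 8, whose other 4 libraries come from dendritic cells of Gata1 knock-out (KO) mice under the same pair of treatments. Gata1 encodes a transcription factor of blood lineages, and the WT libraries carry no named allele. The series calls the 2 libraries of a group biological replicates, but the labels do not say whether they are separate animals or cultures, so p-values measure only the spread between libraries, which may be technical. No label used here states the tissue or culture of origin, the LPS dose or the time of treatment. The WT libraries held 9855387 and 12536554 counts at steady state and 8488443 and 15495249 with LPS, for replicates 1 and 2.

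LPS, the lipopolysaccharide of Gram-negative bacteria, is bound by CD14, MD-2 and TLR4, which signal through MyD88 to NF-kB and AP-1 and through TRIF to IRF3 and type I interferon. Interferon then acts back on the cells through its receptor and turns on a large set of antiviral genes. In dendritic cells this stimulus is known for maturation: the cells release cytokines, display costimulatory molecules and give up antigen uptake.

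Of the 23420 genes in the table, 12442 passed the filter on low counts and were tested with edgeR's quasi-likelihood F test over all 8 libraries. At a Benjamini-Hochberg adjusted p under 0.05, 373 genes (3.0%) were higher with LPS and 434 (3.49%) were lower, which are the genes called below. These shares of all genes are the background for every count of called list members. Of the genes called higher 260 and of those called lower 321 moved more than 4-fold, and 102 and 124 moved more than 16-fold. The smallest called log2 fold changes were 0.946 and -1.02. With 2 libraries a group, the sizes of called changes thus follow in part from the test, which small changes seldom pass. Levels are given as CPM, read counts scaled to a common library size. The genes called higher went from 20746 and 22413 CPM in sum at steady state to 141958 and 99067 CPM with LPS. Those called lower went from 75435 and 62560 CPM to 12430 and 12922 CPM. Both sums are over genes picked for this difference. The median log2 fold change over all genes tested was 0.0019. Both LPS libraries stood above both steady-state libraries for 27.5% of the genes tested and below both for 29.1%, and for all 373 and all 434 of the called genes.

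**Figure D1:**
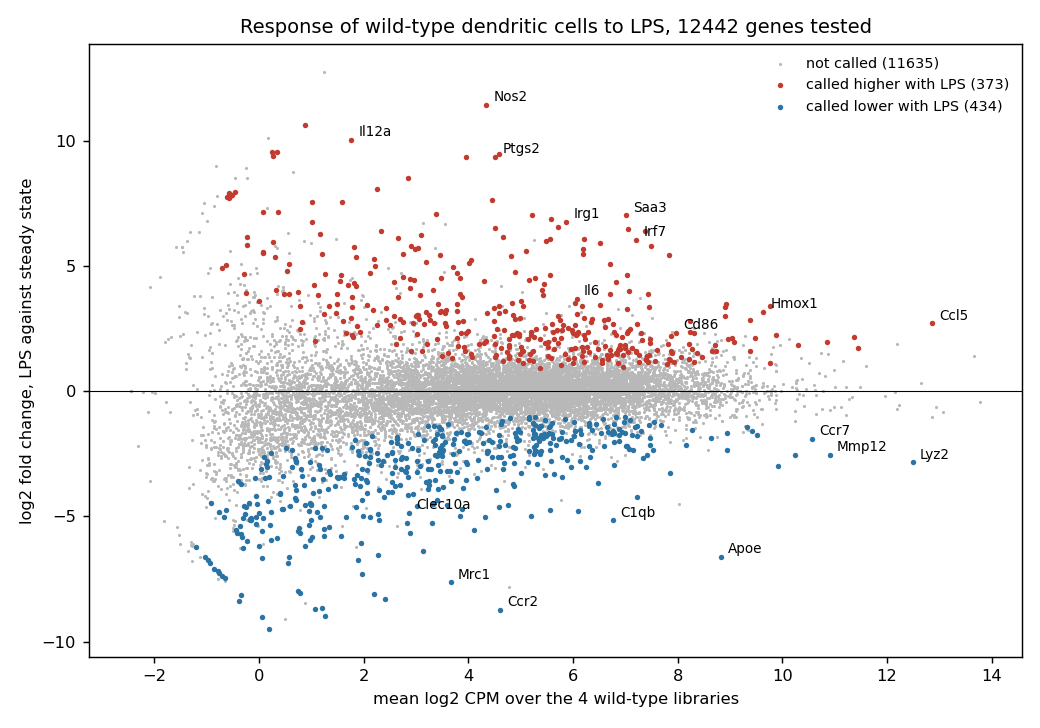
Log2 fold change with LPS (vertical) against mean log2 CPM over the 4 WT libraries (horizontal) for the 12442 genes tested, with called genes in colour. Nos2, at 11.44, and Ccr2, at -8.72, lie near the ends of the called range, and abundant genes such as Ccl5, Hmox1, Lyz2 and Apoe are among those called.

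The number of calls rested on single libraries. It was 33 higher and 37 lower without steady-state replicate 1, 49 and 70 without steady-state replicate 2, 357 and 325 without LPS replicate 1, and 1776 and 1853 without LPS replicate 2. The call was kept in all 4 fits by 32 genes called higher, among them Il6, Il1a, Il1b, Il12a, Irg1, Irf7, Isg15, Ifit1, Oasl1, Socs3 and Sod2, and by 33 called lower, among them Apoe, Ccr2, Mgl2, Clec10a, Fcrls, Gpx3, Timp2 and Alox15. Some named genes close to the threshold were called or not with the scaling or the fit: Adora3, Bnip3, C5ar1, Cflar, Cxcl11, Dusp1, H2-M3, Ifitm3, P2rx7, Psmb9 and Tnfaip3 (adjusted p 0.0503 to 0.0641) lost their calls under upper-quartile factors, Cflar and H2-M3 (adjusted p 0.0513) under relative log expression factors, and Adora3, Bnip3, C5ar1, Cflar, Cxcr2, Dusp1, H2-M3, Hk2, Hpgds, Ifitm3, Il1rn, Itgb7, P2rx7, Prdx6, St8sia1 and Tnfaip3 (adjusted p 0.0501 to 0.0532) in a robust fit. The LPS libraries were less alike than the steady-state ones, with Pearson's r of 0.910 against 0.972 over log2 CPM across genes. Below, values are given in the order replicate 1 and replicate 2, ± is the SE of the fit, and a bare number beside a gene is its log2 fold change.

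Markers of dendritic cells were present, as were those of macrophages. All 10 dendritic cell markers had at least 10 CPM in both steady-state libraries, and 8 and 9 of them did with LPS. Cd74, the MHC class II invariant chain, stood at 14930.0 and 7254 CPM at steady state and 6676 and 4178 CPM with LPS, and Itgax, the integrin chain CD11c, stood at 473 and 374 CPM at steady state and 645 and 214 CPM with LPS. All 13 macrophage markers also had at least 10 CPM in both steady-state libraries, and 8 and 12 did with LPS. The 13 summed to 26899 and 21242 CPM at steady state and 8319.7 and 5039.5 CPM with LPS. The 10 dendritic cell markers summed to 22438 and 13094 CPM and to 11202 and 7853.7 CPM. The presence of these markers thus does not tell the 2 cell types apart. The 11 neutrophil markers summed to 547 and 878 CPM at steady state and 258 and 183 CPM with LPS. Mmp8, which was called lower, made up 66.0% to 89.4% of the reads of these markers in each library, and without it the other 10 summed to 58.1 and 298 CPM at steady state and 40.9 and 38.5 CPM with LPS. T and NK cell markers summed to at most 3.42 CPM in any WT library. Of 10 mast cell and basophil markers 5 were tested and 1 was called, Hdc, histidine decarboxylase, at 0.483 and 2.31 CPM at steady state and 130.4 and 17.8 CPM with LPS (log2 fold change 5.67 ± 1.15, adjusted p = 0.0321). The call of Hdc was lost without either steady-state library (adjusted p 0.126 to 0.215). In steady-state replicate 2, transcripts of granulocytes were higher than in replicate 1: S100a9 stood at 9.37 and 87.9 CPM, Ngp at 2.22 and 48.9 CPM and the basophil protease gene Prss34 at 1.35 and 55.9 CPM. In bulk RNA, fewer cells of a type and less RNA per cell cannot be told apart. Gata1 itself had 1 and 10 reads at steady state and 0 and 1 with LPS and did not pass the filter.

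Among genes of LPS and Toll-like receptor sensing, Cd14, Tlr2 and Irak3 rose and Lbp fell. Of the list of LPS receptors and adaptors, 3 higher and 1 lower of 22 tested members were called, against 3.0% and 3.49% of all genes, and the list's median log2 fold change was 0.68. Cd14, the co-receptor that hands LPS to TLR4, stood at 199 and 109 CPM at steady state and 2455 and 1017 CPM with LPS (log2 fold change 3.50 ± 0.54, adjusted p = 0.0140). Tlr2, the receptor of bacterial lipoproteins, stood at 43.9 and 53.4 CPM at steady state and 270.0 and 226 CPM with LPS (log2 fold change 2.35 ± 0.24, adjusted p = 0.00483). Irak3, an inhibitory kinase of the pathway, was at 23.1 and 23.9 CPM at steady state and 141 and 117 CPM with LPS (log2 fold change 2.46 ± 0.25, adjusted p = 0.00464). All 3 genes were several-fold higher in each LPS library than in any steady-state library. The LPS receptor itself did not move past the test: Tlr4 stood at 60.5 and 56.3 CPM at steady state and 54.6 and 52.2 CPM with LPS (log2 fold change -0.13 ± 0.41, adjusted p = 0.863). Lbp, the serum LPS-binding protein, fell, with 2.80 and 2.08 CPM at steady state and 0.264 and 0.309 CPM with LPS (log2 fold change -3.01 ± 0.66, adjusted p = 0.0428). The calls of Irak3 and Tlr2 were lost without steady-state replicate 1 (adjusted p 0.0594), that of Cd14 without either steady-state library (adjusted p 0.0852 to 0.109), and that of Lbp without steady-state replicate 1, steady-state replicate 2 or LPS replicate 1 (adjusted p 0.0993 to 0.242).

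The NF-kB subunits were not among the called genes, while 2 of their regulators were. Of the NF-kB list, 2 higher (8.33%, against 3.0% of all genes) and 0 lower of 24 tested members were called (median 0.34). Nfkbiz, a nuclear co-activator of secondary response genes such as Il6, stood at 15.1 and 22.8 CPM at steady state and 139 and 77.3 CPM with LPS (log2 fold change 2.51 ± 0.42, adjusted p = 0.0183). Tnfaip3, which encodes the ubiquitin-editing inhibitor A20, stood at 168 and 303 CPM at steady state and 673 and 768 CPM with LPS (log2 fold change 1.61 ± 0.37, adjusted p = 0.0481). Both rose in both LPS libraries. Members that were not called included Nfkbia (1.15), Rela (-0.29), Nfkb2 (-0.37) and Relb (-0.99), the lowest of the list. Of the 24 members, 15 had a positive log2 fold change and 9 a negative one. Both LPS libraries were above both steady-state libraries for 10 (41.7%, against 27.5% of all genes) and below both for 3 (12.5%, against 29.1%). Of the AP-1 and immediate early list, 1 higher and 1 lower of 21 tested members were called, 4.76% in each direction and near the shares of all genes. Batf, an AP-1 family partner of IRF factors, rose (log2 fold change 2.47 ± 0.47, adjusted p = 0.0269), and the zinc finger factor Egr2 fell (log2 fold change -1.69 ± 0.38, adjusted p = 0.0455). Batf stood at 10.3 and 10.1 CPM at steady state and 80.4 and 33.3 CPM with LPS, and Egr2 at 102 and 74.2 CPM at steady state and 34.1 and 20.6 CPM with LPS. The calls of Nfkbiz, Batf and Egr2 were lost without either steady-state library (adjusted p 0.0931 to 0.242), and that of Tnfaip3 without steady-state replicate 1, steady-state replicate 2 or LPS replicate 1 (adjusted p 0.0622 to 0.267).

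Of the inflammatory cytokine list, 9 higher (50.0%, against 3.0% of all genes) and 0 lower of 18 tested members were called. The median log2 fold change was 2.92, and both LPS libraries stood above both steady-state libraries for 17 of the 18, against 27.5% of all genes. Il6, the acute-phase cytokine, stood at 11.5 and 27.4 CPM at steady state and 253 and 249.7 CPM with LPS (log2 fold change 3.69 ± 0.41, adjusted p = 0.00561). The 2 LPS values were nearly equal and about an order above the steady-state values. Il1a and Il1b, the pyrogenic IL-1 cytokines, stood at 10.3 and 12 CPM at steady state and 655 and 332 CPM with LPS, and at 13.7 and 23.3 CPM at steady state and 824 and 430.4 CPM with LPS. Their log2 fold changes were 5.46 ± 0.47 and 5.08 ± 0.48 (adjusted p = 0.00372 and 0.00441), and in both genes replicate 1 was the higher LPS library.

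The chains of IL-12, which drives Th1 responses, rose from different starting levels. Il12a, the p35 chain, had 1 read in the 2 steady-state libraries together and 1166 in the 2 LPS libraries, a ratio of 1170.0 (95% counting interval 209.6 to 46250). Its level with LPS was 74.1 and 37.5 CPM (adjusted p = 0.00372). Il12b, the p40 chain, was already present at steady state, with 62.1 and 182 CPM at steady state and 831 and 857 CPM with LPS (log2 fold change 2.79 ± 0.49, adjusted p = 0.0210). Among the other called cytokines, Inhba, the activin A subunit, stood at 0.193 and 2.45 CPM at steady state and 1786 and 185 CPM with LPS (log2 fold change 9.47 ± 1.63, adjusted p = 0.0201). Tnfsf15, the TNF family ligand TL1A, stood at 2.32 and 7.14 CPM at steady state and 375 and 754 CPM with LPS (log2 fold change 6.88 ± 0.76, adjusted p = 0.00542). The LPS libraries were far apart for Inhba, with replicate 1 the higher, and replicate 2 was the higher for Tnfsf15. Tnf stood at 5.22 and 4.31 CPM at steady state and 22 and 65.1 CPM with LPS (log2 fold change 3.20 ± 0.59, adjusted p = 0.0249), and Osm, which encodes oncostatin M, stood at 20.7 and 35.5 CPM at steady state and 277 and 147 CPM with LPS (log2 fold change 2.91 ± 0.56, adjusted p = 0.0271). The calls of Il12b and Tnfsf15 were lost without steady-state replicate 1 (adjusted p 0.0522 to 0.0740), those of Inhba and Tnf without either steady-state library (adjusted p 0.0935 to 0.178), and that of Osm without steady-state replicate 1, steady-state replicate 2 or LPS replicate 1 (adjusted p 0.0513 to 0.210). Il6, Il1a, Il1b and Il12a kept their calls without each of the 4 libraries. Genes of this list with too few reads to be tested included Ifnb1, with 1 and 0 reads at steady state and 8 and 8 with LPS, Il10, with 2 and 0 against 6 and 45, and Il23a, with 0 and 1 against 5 and 4.

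Chemokine genes moved in both directions. The CXC list had 4 higher and 2 lower of 11 tested members called and a median of 5.38. The CC list had 2 higher and 1 lower of 11 tested members called and a median of 0.32. The shares called higher and lower were 36.4% and 18.2% of the CXC list and 18.2% and 9.09% of the CC list. Those of all genes were 3.0% and 3.49%. Ccl5, which attracts T cells and monocytes, gained more CPM than any other called gene: it stood at 2658 and 3277 CPM at steady state and 25792 and 13298 CPM with LPS (log2 fold change 2.72 ± 0.56, adjusted p = 0.0337). Cxcl10, a ligand of CXCR3 on activated T cells, stood at 1.84 and 0.446 CPM at steady state and 57.3 and 60.8 CPM with LPS (log2 fold change 5.73 ± 0.80, adjusted p = 0.0102), with LPS libraries alike. The neutrophil attractants Cxcl2 and Cxcl3 stood at 7.24 and 6.32 CPM at steady state and 1143 and 134 CPM with LPS, and at 8.6 and 12.2 CPM at steady state and 643 and 412 CPM with LPS (adjusted p = 0.0394 and 0.0135). Cxcl2 differed strongly between the 2 LPS libraries, and Cxcl3 less so, but all LPS values lay far above steady state. Ccl3 (2.35) and Cxcl11 (5.38) were also called higher. Ccl6, a chemokine of resting myeloid cells, fell from 2889 and 2796 CPM to 520.2 and 204 CPM (log2 fold change -2.97 ± 0.56, adjusted p = 0.0269). Cxcl14 (-4.49) and the platelet chemokine gene Ppbp (-3.81) were called lower. The dendritic cell chemokines Ccl22 and Ccl17 were abundant in all 4 libraries and not called: Ccl22 stood at 4466 and 8060.3 CPM at steady state and 4056 and 11580.2 CPM with LPS. The calls of Ccl5, Ccl3, Ccl6, Cxcl3 and Cxcl10 were lost without either steady-state library (adjusted p 0.0594 to 0.253), those of Cxcl2 and Ppbp without steady-state replicate 1, steady-state replicate 2 or LPS replicate 1 (adjusted p 0.0564 to 0.247), that of Cxcl11 without steady-state replicate 1, steady-state replicate 2 or LPS replicate 2 (adjusted p 0.0516 to 0.238), and that of Cxcl14 without steady-state replicate 1 (adjusted p 0.0768).

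The interferon-stimulated antiviral genes held the highest share of called members of any list: 29 of 40 (72.5%) were called higher and none lower, against 3.0% of all genes. Their median log2 fold change was 2.38, and both LPS libraries stood above both steady-state libraries for 36 of the 40. Rsad2, which encodes the antiviral enzyme viperin, lies at chr12:26442743-26456452 (GRCm38) and stood at 20.8 and 15.8 CPM at steady state and 1806 and 1279 CPM with LPS (log2 fold change 6.4 ± 0.62, adjusted p = 0.00454). Isg15, a ubiquitin-like protein that is attached to viral and cellular proteins, lies at chr4:156199424-156200818 and stood at 8.6 and 3.20 CPM at steady state and 445 and 304 CPM with LPS (log2 fold change 6.0 ± 0.55, adjusted p = 0.00384). Among the 20 steepest risers, these 2 are the members of the list whose region before the start site holds the interferon-stimulated response element (ISRE), the motif bound by IRF and STAT complexes. Their 250 bases before the RefSeq start site (GRCm38.p6, both on the minus strand, 5′ to 3′) are shown with the motif in capitals.
Rsad2, chr12:26456453-26456702: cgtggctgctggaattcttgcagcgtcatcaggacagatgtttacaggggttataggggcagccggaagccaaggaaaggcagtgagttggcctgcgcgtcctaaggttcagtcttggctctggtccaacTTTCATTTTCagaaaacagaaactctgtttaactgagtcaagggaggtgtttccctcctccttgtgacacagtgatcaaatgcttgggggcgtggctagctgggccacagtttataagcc
Isg15, chr4:156200819-156201068: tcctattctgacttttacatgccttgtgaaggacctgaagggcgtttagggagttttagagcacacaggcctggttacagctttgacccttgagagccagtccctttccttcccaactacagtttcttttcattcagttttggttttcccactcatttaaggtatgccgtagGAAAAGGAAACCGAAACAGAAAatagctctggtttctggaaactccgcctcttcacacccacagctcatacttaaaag

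The motif searched was GAAA, any 2 bases, GAAA, on both strands. It occurs once before Rsad2, there on the opposite strand, with its first base 120 bases before the start, and 3 times in overlapping copies before Isg15, with first bases 78, 72 and 66 bases before the start. Over the promoters that could be matched, it was present for 45.8% of 24 called members of the interferon list, for 10.8% of 279 genes called higher, for 3.07% of 326 called lower and for 3.37% of all 9937 genes tested and matched. Without the interferon list, 7.45% of 255 genes called higher held it. The AP-1 motif TGANTCA was present for 14% of the genes called higher, 8.59% of those called lower and 5.85% of all genes tested. A loose NF-kB motif (GGG, any 5 bases, CC) did not separate the groups, with 65.2%, 64.4% and 66.3%. The median GC content of these windows was 55.3%, 58.2% and 59.6% in the same order. A match describes the letters only.

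Other antiviral genes were also higher in both LPS libraries. Oasl1, an OAS-like regulator of Irf7 translation, stood at 5.02 and 6.32 CPM at steady state and 309 and 461 CPM with LPS (log2 fold change 6.08 ± 0.39, adjusted p = 0.00279). Ifit1, which binds foreign RNA caps, stood at 6.18 and 3.87 CPM at steady state and 164 and 328 CPM with LPS (log2 fold change 5.62 ± 0.50, adjusted p = 0.00372). Zbp1, a sensor of Z-form nucleic acids, stood at 23.3 and 14.3 CPM at steady state and 129 and 169 CPM with LPS (log2 fold change 2.99 ± 0.33, adjusted p = 0.00542). In these 3 genes replicate 2 was the higher LPS library. Bst2, the virion-tethering protein tetherin, was high at steady state already and rose from 336 and 217 CPM to 1169 and 986 CPM (log2 fold change 1.96 ± 0.37, adjusted p = 0.0272). Slfn4, a Schlafen family gene of myeloid cells, rose from 5.6 and 1.71 CPM to 240.3 and 709 CPM (log2 fold change 7.04 ± 0.88, adjusted p = 0.00766). Mx1, a classical member, was not called: it stood at 1589 and 1452 CPM at steady state and 74.6 and 1001 CPM with LPS, lowest in LPS replicate 1. Of the 29 called members, 7 kept the call without each library, and the call was lost by 21 without steady-state replicate 1 (adjusted p up to 0.236), 20 without steady-state replicate 2 (adjusted p up to 0.253) and 2 without LPS replicate 1 (adjusted p up to 0.106). Irf7, the master regulator of type I interferon genes, stood at 25.7 and 12.1 CPM at steady state and 1439.6 and 1047 CPM with LPS (log2 fold change 6.04 ± 0.59, adjusted p = 0.00454). Of the IRF, STAT and SOCS list, 5 higher and 0 lower of 24 tested members were called: Irf7, Socs3 (3.52), Stat5a (1.55), Stat5b (1.26) and Socs1 (1.33). The share called higher was 20.8%, against 3.0% of all genes. Socs3, the inhibitor of IL-6 receptor signalling, stood at 18 and 20.7 CPM at steady state and 266 and 179 CPM with LPS (log2 fold change 3.52 ± 0.30, adjusted p = 0.00372). Irf1, Irf3 and Irf5 had log2 fold changes of -0.18, -0.50 and -0.04. The calls of Stat5a, Stat5b and Socs1 were lost without steady-state replicate 1, steady-state replicate 2 or LPS replicate 1 (adjusted p 0.0527 to 0.264), those of Slfn4 and Bst2 without either steady-state library (adjusted p 0.0543 to 0.187), and that of Rsad2 without steady-state replicate 1 (adjusted p 0.0543). Irf7 and Socs3 kept their calls without each of the 4 libraries.

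Genes of antigen presentation on MHC class I were called higher in part, and those of class II were not called. Of the class I list, 6 higher and 0 lower of 20 tested members were called (median 0.98). In both LPS libraries 13 of the 20 (65.0%) were above both steady-state libraries, against 27.5% of all genes. H2-K1, a classical heavy chain, stood at 1661 and 1440.3 CPM at steady state and 6031 and 4245 CPM with LPS (log2 fold change 1.73 ± 0.39, adjusted p = 0.0452). Tap1, the peptide transporter, stood at 175 and 166 CPM at steady state and 539 and 570.0 CPM with LPS (log2 fold change 1.70 ± 0.24, adjusted p = 0.0110). B2m, the light chain, stood at 2514 and 2465 CPM at steady state and 11709.9 and 6616 CPM with LPS and missed the threshold (adjusted p = 0.0513). The other called members were H2-T24 (2.22), H2-Q4 (2.14), H2-M3 (1.13) and Psmb9 (1.09). Of the class II list, 0 of 14 were called, with a median of -0.31. In both LPS libraries 4 of them (28.6%) were below both steady-state libraries, near the 29.1% of all genes. With edgeR 1 member was lower at an unadjusted p under 0.05, and DESeq2 called 1 lower. H2-Ab1 stood at 3971 and 1835 CPM at steady state and 2381 and 1383 CPM with LPS (log2 fold change -0.63 ± 0.58, adjusted p = 0.510), and Ciita, the class II transactivator, stood at 322 and 298 CPM at steady state and 64.7 and 219 CPM with LPS (log2 fold change -1.13 ± 0.57, adjusted p = 0.246). Among the interferon-inducible GTPases that act on intracellular microbes, 2 of 15 were called, both higher (13.3%, against 3.0% of all genes). Gbp6 stood at 1.35 and 1.56 CPM at steady state and 64.1 and 40.3 CPM with LPS (log2 fold change 5.15 ± 0.38, adjusted p = 0.00340) and Irgm1 at 40.1 and 28.5 CPM at steady state and 134 and 193 CPM with LPS (log2 fold change 2.26 ± 0.33, adjusted p = 0.0119). The calls of Tap1, H2-T24, H2-Q4, H2-M3 and Irgm1 were lost without either steady-state library (adjusted p 0.0852 to 0.268), and those of H2-K1 and Psmb9 without steady-state replicate 1, steady-state replicate 2 or LPS replicate 1 (adjusted p 0.0544 to 0.256). Gbp6 kept its call without each of the 4 libraries.

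**Figure D2:**
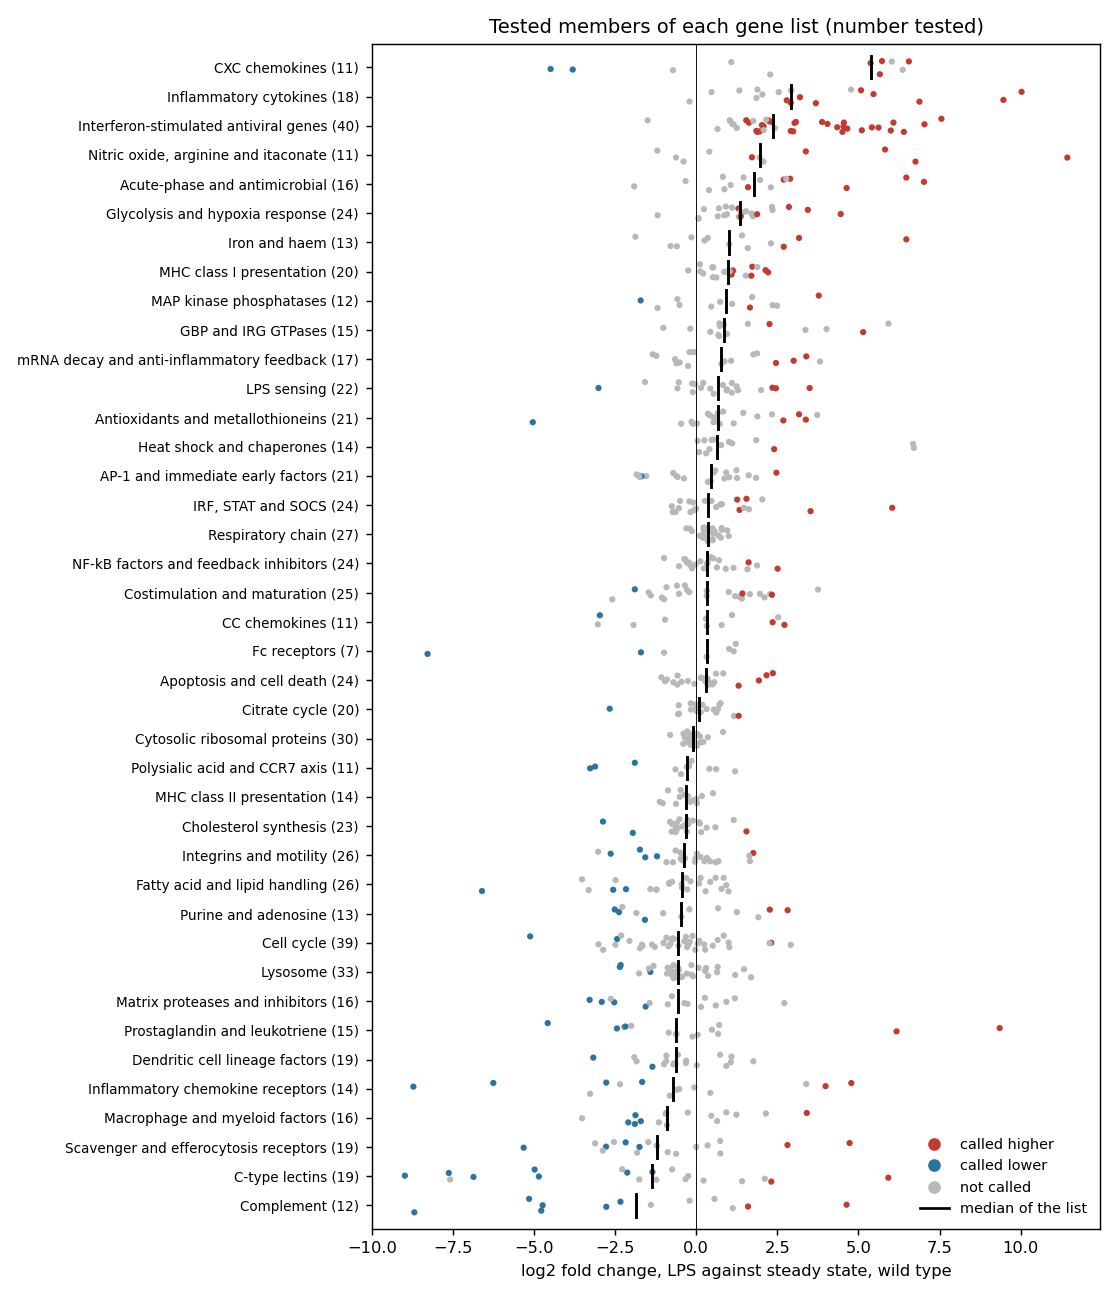
Log2 fold change with LPS (horizontal) of each tested member of the 40 gene lists (rows, ordered by median, with the number tested), called members in colour and the list's median as a black bar. CXC chemokines, inflammatory cytokines and interferon-stimulated genes stand at the top with medians of 5.38, 2.92 and 2.38, and C-type lectins and complement at the bottom with -1.35 and -1.87.

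Enzymes of nitric oxide and itaconate production were among the steepest risers. Nos2, the inducible nitric oxide synthase (chr11:78920787-78960226), stood at 0.386 and 0.297 CPM at steady state and 1540.4 and 401 CPM with LPS (log2 fold change 11.44 ± 1.24, adjusted p = 0.00516), the highest fold of any called gene whose log2 CPM averaged 3 or more. Irg1 (now Acod1), which makes itaconate, stood at 5.22 and 6.17 CPM at steady state and 832 and 407 CPM with LPS (log2 fold change 6.76 ± 0.57, adjusted p = 0.00372). Slc7a2, a transporter of the Nos2 substrate arginine, stood at 19.2 and 30.6 CPM at steady state and 1902 and 915 CPM with LPS (log2 fold change 5.82 ± 0.58, adjusted p = 0.00464). In these 3 genes both steady-state libraries were low and replicate 1 was the higher LPS library. The list had 5 higher and 0 lower of 11 tested members called (median 1.95), the others being the mitochondrial superoxide dismutase Sod2 (3.38) and Gch1 (1.72), which makes the Nos2 cofactor tetrahydrobiopterin. The share called higher was 45.5%, against 3.0% of all genes. Arg1, which competes for arginine, stood at 27.6 and 17.9 CPM at steady state and 50.5 and 10.2 CPM with LPS and was not called. The calls of Nos2 and Gch1 were lost without either steady-state library (adjusted p 0.0637 to 0.105), and that of Slc7a2 without steady-state replicate 1 (adjusted p 0.0582). Irg1 and Sod2 kept their calls without each of the 4 libraries.

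Of the eicosanoid list, 2 higher and 3 lower of 15 tested members were called. Ptgs2, cyclooxygenase-2, stood at 0.483 and 1.34 CPM at steady state and 969 and 274 CPM with LPS (log2 fold change 9.35 ± 1.16, adjusted p = 0.00749), and Ptges, the terminal synthase of prostaglandin E2, stood at 2.03 and 4.31 CPM at steady state and 343 and 122 CPM with LPS (log2 fold change 6.17 ± 0.86, adjusted p = 0.0102). Replicate 1 was the higher LPS library for both. The other 3 called members fell. Alox15, the 12/15-lipoxygenase, stood at 5.22 and 5.58 CPM at steady state and 0.264 and 0.186 CPM with LPS (log2 fold change -4.58 ± 0.47, adjusted p = 0.00464). Tbxas1, the thromboxane synthase, stood at 318 and 234 CPM at steady state and 62.0 and 59.2 CPM with LPS (log2 fold change -2.19 ± 0.30, adjusted p = 0.00988), and Hpgds, the prostaglandin D synthase, at 30.5 and 21.4 CPM at steady state and 7.01 and 2.72 CPM with LPS (log2 fold change -2.45 ± 0.56, adjusted p = 0.0478). The other 10 members were not called. The calls of Ptgs2, Ptges and Hpgds were lost without either steady-state library (adjusted p 0.0672 to 0.242), and that of Tbxas1 without steady-state replicate 1 (adjusted p 0.0835). Alox15 kept its call without each of the 4 libraries.

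Acute-phase, antimicrobial and haem-handling genes rose in part. Of the acute-phase list, 6 higher (37.5%, against 3.0% of all genes) and 0 lower of 16 tested members were called (median 1.78). Saa3, a serum amyloid A protein, stood at 15.2 and 8.55 CPM at steady state and 2119.8 and 957 CPM with LPS (log2 fold change 7.02 ± 0.80, adjusted p = 0.00581). Lcn2, which withholds iron from bacteria by binding siderophores, stood at 3.38 and 35.2 CPM at steady state and 2425 and 1023 CPM with LPS (log2 fold change 6.48 ± 1.15, adjusted p = 0.0218). Its 2 steady-state libraries differed about 10-fold, with replicate 2, the library with more granulocyte transcripts, the higher; Lcn2 is also a neutrophil granule gene, and the part of other cells in its value was not tested. Hmox1, haem oxygenase-1, stood at 331 and 221 CPM at steady state and 3350.1 and 1610.1 CPM with LPS (log2 fold change 3.17 ± 0.57, adjusted p = 0.0227). Cfb, complement factor B, rose from 29.7 and 24.3 CPM to 896 and 447 CPM (log2 fold change 4.63 ± 0.42, adjusted p = 0.00384), and C3 rose from 444 and 331 CPM to 1149 and 1196 CPM (log2 fold change 1.6 ± 0.34, adjusted p = 0.0370). Hp (2.70), Slpi (2.90) and the peroxiredoxin gene Prdx6 (2.68) were also called higher. The antioxidant list had 3 higher and 1 lower of 21 tested members called (Hmox1, Prdx6 and Sod2 higher), and the iron and haem list 3 higher and 0 lower of 13 tested members (Hmox1, Lcn2 and Hp). The shares called higher were 14.3% and 23.1%. The share called lower was 4.76% in the antioxidant list, near the 3.49% of all genes. The selenoenzyme gene Gpx3 fell, from 134 and 91.8 CPM to 4.63 and 2.41 CPM (log2 fold change -5.04 ± 0.43, adjusted p = 0.00372). The calls of Saa3, Hmox1, C3 and Hp were lost without either steady-state library (adjusted p 0.0658 to 0.230), those of Slpi and Prdx6 without steady-state replicate 1, steady-state replicate 2 or LPS replicate 1 (adjusted p 0.0559 to 0.247), and that of Lcn2 without steady-state replicate 1 (adjusted p 0.0668). Cfb and Gpx3 kept their calls without each of the 4 libraries.

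Genes known to restrain the response were among those called higher. Il1rn, the IL-1 receptor antagonist, stood at 208 and 168 CPM at steady state and 2385 and 627 CPM with LPS (log2 fold change 3.0 ± 0.69, adjusted p = 0.0481). Dusp4 and Dusp1, phosphatases that switch off MAP kinases, stood at 3.09 and 4.76 CPM at steady state and 65.5 and 43.1 CPM with LPS, and at 57.4 and 75.3 CPM at steady state and 153 and 265 CPM with LPS (adjusted p = 0.0153 and 0.0481). The nuclear receptor gene Nr4a2 stood at 7.73 and 13 CPM at steady state and 140.4 and 78.5 CPM with LPS (log2 fold change 3.39 ± 0.56, adjusted p = 0.0182). All 4 genes were higher in both LPS libraries. Of the lists, 2 higher and 1 lower of 12 tested members were called among MAP kinase phosphatases, Dusp3 (-1.71) being the one that fell, and 3 higher and 0 lower of 17 tested members among feedback genes. The phosphatase shares were 16.7% and 8.33%, and 17.6% of the feedback genes were called higher, against 3.0% and 3.49% of all genes. Cell death genes had 4 higher (16.7%, against 3.0% of all genes) and 0 lower of 24 tested members called: Ripk2 (2.36), Casp4 (2.17), Mlkl (1.93) and Cflar (1.31). Of these, Casp4 encodes the cytosolic LPS receptor caspase-11. The calls of Dusp4, Dusp1, Nr4a2, Ripk2, Casp4 and Mlkl were lost without either steady-state library (adjusted p 0.0626 to 0.282), and those of Il1rn, Dusp3 and Cflar without steady-state replicate 1, steady-state replicate 2 or LPS replicate 1 (adjusted p 0.0504 to 0.280).

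Of the maturation list, 2 higher (8.0%) and 1 lower (4.0%) of 25 tested members were called, against 3.0% and 3.49% of all genes. The median was 0.32. Both LPS libraries were above both steady-state libraries for 40.0% of the list and below both for 28.0%, against 27.5% and 29.1% of all genes. The lower side was thus near the shares of all genes. Cd86, the costimulatory ligand of CD28, stood at 111 and 110.4 CPM at steady state and 598 and 520.0 CPM with LPS (log2 fold change 2.34 ± 0.26, adjusted p = 0.00542), and Cd200, an inhibitory ligand of myeloid cells, at 96.6 and 113 CPM at steady state and 228 and 335 CPM with LPS (log2 fold change 1.42 ± 0.28, adjusted p = 0.0308). Ccr7, the receptor that guides dendritic cells to lymph nodes, was lower with LPS: it stood at 2708 and 3206 CPM at steady state and 599 and 992 CPM with LPS (log2 fold change -1.89 ± 0.39, adjusted p = 0.0340). For Cd86 and Ccr7 the 2 libraries of each group were close together and the groups far apart. Cd80, the partner of Cd86, stood at 57.5 and 86.5 CPM at steady state and 239.9 and 459 CPM with LPS and Cd274, PD-L1, at 469.8 and 671 CPM at steady state and 3519.8 and 1391 CPM with LPS, both above all steady-state values and short of the threshold (adjusted p = 0.0547 and 0.0692). Cd40 stood at 45.1 and 74.8 CPM at steady state and 71.9 and 168 CPM with LPS and Cd83 at 662 and 935 CPM at steady state and 289.7 and 767 CPM with LPS, both overlapping between groups. Fscn1, the actin bundler of mature dendritic cells, stood at 2174 and 4148 CPM at steady state and 236 and 3109.5 CPM with LPS, low in LPS replicate 1 alone. In the list of polysialic acid and the Ccr7 axis, Nrp1 (log2 fold change -3.27 ± 0.43, adjusted p = 0.00907) and the sialyltransferase gene St8sia1 (-3.12) fell beside Ccr7. St8sia4, the polysialyltransferase, stood at 189.9 and 262 CPM at steady state and 138 and 460.3 CPM with LPS and Nrp2, a carrier of polysialic acid, at 231 and 289 CPM at steady state and 115 and 355 CPM with LPS, neither called (adjusted p = 0.678 and 0.873). The calls of Cd86, Cd200 and Nrp1 were lost without either steady-state library (adjusted p 0.0513 to 0.234), and those of Ccr7 and St8sia1 without steady-state replicate 1, steady-state replicate 2 or LPS replicate 1 (adjusted p 0.0708 to 0.262).

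Genes of glycolysis and the hypoxia response were higher in both LPS libraries for 19 of 24, against 27.5% of all genes, while 6 higher and 0 lower of 24 tested members were called (median 1.34). Vegfa, the angiogenic growth factor, stood at 249.6 and 282 CPM at steady state and 2906 and 948 CPM with LPS (log2 fold change 2.86 ± 0.63, adjusted p = 0.0437). Egln3, a HIF prolyl hydroxylase that HIF itself induces, stood at 0.773 and 2.68 CPM at steady state and 54.5 and 23.8 CPM with LPS (log2 fold change 4.45 ± 0.66, adjusted p = 0.0124), and Ero1l, an oxidase of the endoplasmic reticulum, at 27.0 and 35.1 CPM at steady state and 540.3 and 135 CPM with LPS (log2 fold change 3.44 ± 0.64, adjusted p = 0.0257). Hk2, the inducible hexokinase, stood at 69.2 and 62.4 CPM at steady state and 203 and 122 CPM with LPS (log2 fold change 1.30 ± 0.30, adjusted p = 0.0473). In all 4 genes replicate 1 was the higher LPS library. Bnip3 (1.88) and Ndrg1 (1.37) were also called. Slc2a1, the glucose transporter GLUT1, stood at 77.6 and 83.9 CPM at steady state and 649 and 166 CPM with LPS (adjusted p = 0.0650), and Ldha, lactate dehydrogenase A, at 295 and 224 CPM at steady state and 1094 and 411 CPM with LPS (adjusted p = 0.118). Gapdh stood at 2.22 and 1.86 CPM at steady state and 2.12 and 2.17 CPM with LPS. The labels do not state how reads that match several genes were counted, and levels of genes with many processed copies, such as Gapdh and the ribosomal protein genes, are uncertain. The calls of Vegfa, Hk2, Bnip3 and Ndrg1 were lost without steady-state replicate 1, steady-state replicate 2 or LPS replicate 1 (adjusted p 0.0711 to 0.262), that of Egln3 without steady-state replicate 1 (adjusted p 0.0860), and that of Ero1l without either steady-state library (adjusted p 0.154 to 0.207).

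The citrate cycle and sterol lists had few called members, and the respiratory chain and ribosomal protein lists had none. In the citrate cycle list 1 higher and 1 lower of 20 tested members were called (5.0% each), near the 3.0% and 3.49% of all genes. They were Mdh1, the cytosolic malate dehydrogenase (1.31), and Idh1, the cytosolic isocitrate dehydrogenase (-2.67). Idh1 stood at 439 and 404 CPM at steady state and 44.0 and 88.3 CPM with LPS (log2 fold change -2.67 ± 0.45, adjusted p = 0.0187), and the mitochondrial isocitrate dehydrogenases Idh2, Idh3a, Idh3b and Idh3g had log2 fold changes of -0.53, -0.54, 0.62 and -0.17. With edgeR 0 members of the respiratory chain (27 tested) or ribosomal protein list (30 tested) were called, with 4 (all higher) and 0 at an unadjusted p under 0.05, 0 and 0 called by DESeq2, and medians of 0.35 and -0.09. Of the sterol list, 1 higher (4.35%) and 2 lower (8.70%) of 23 tested members were called, with a median of -0.33. The share called higher was near the 3.0% of all genes. Both LPS libraries were below both steady-state libraries for 47.8% of the list, against 29.1% of all genes. Dhcr7, a reductase of cholesterol synthesis, stood at 44.7 and 37.5 CPM at steady state and 9.26 and 11.8 CPM with LPS (log2 fold change -1.96 ± 0.36, adjusted p = 0.0236), and Pmvk, a kinase of the mevalonate pathway, rose (1.55). The calls of Mdh1, Idh1 and Pmvk were lost without either steady-state library (adjusted p 0.0776 to 0.169), and that of Dhcr7 without steady-state replicate 1, steady-state replicate 2 or LPS replicate 1 (adjusted p 0.0636 to 0.156).

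In the lipid list 3 genes fell and none rose. Apoe, the apolipoprotein that carries cholesterol out of macrophages (chr7:19696244-19701310), stood at 5776 and 3319 CPM at steady state and 44.4 and 48.9 CPM with LPS (log2 fold change -6.61 ± 0.65, adjusted p = 0.00454). Lpl, lipoprotein lipase, stood at 3892 and 2187 CPM at steady state and 611 and 419 CPM with LPS (log2 fold change -2.56 ± 0.55, adjusted p = 0.0408), and Apoc2, its activator, at 108 and 61.9 CPM at steady state and 23.7 and 14.4 CPM with LPS (log2 fold change -2.17 ± 0.39, adjusted p = 0.0234). For Apoe the 2 LPS values were close to each other and about 2 orders below steady state. These 3 called members were 11.5% of the 26 in the lipid list (median -0.45), against 3.49% of all genes called lower. Pparg, the lipid-sensing nuclear receptor, stood at 28.1 and 11.8 CPM at steady state and 3.17 and 0.557 CPM with LPS (adjusted p = 0.0591). The call of Lpl was lost without steady-state replicate 1, steady-state replicate 2 or LPS replicate 1 (adjusted p 0.0654 to 0.227), and that of Apoc2 without either steady-state library (adjusted p 0.0578 to 0.149). Apoe kept its call without each of the 4 libraries.

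C-type lectin receptors, many of which take up antigen, were lower with 2 exceptions among the called members. Of the C-type lectin list, 2 higher and 7 lower of 19 tested members were called (median -1.35), and 12 of 19 were below both steady-state libraries in both LPS libraries, against 29.1% of all genes. The shares called were 10.5% and 36.8%, against 3.0% and 3.49% of all genes. Mrc1, the mannose receptor, stood at 194 and 225 CPM at steady state and 0.132 and 1.67 CPM with LPS (log2 fold change -7.63 ± 1.17, adjusted p = 0.0140). Mgl2 and Clec10a, galactose-type lectins that mark type 2 conventional and monocyte-derived dendritic cells, stood at 292 and 140.2 CPM at steady state and 9.65 and 4.27 CPM with LPS, and at 61.8 and 18.8 CPM at steady state and 1.32 and 1.42 CPM with LPS (adjusted p = 0.00542 and 0.00907). Cd209a, a mouse homologue of the lectin DC-SIGN, had 639 reads in the 2 steady-state libraries and 1 in the LPS libraries, a ratio of 636.9 (95% counting interval 113.9 to 25190). Clec4b1 went from 239 reads to 2, a ratio of 119.1 (32.61 to 989.2), with 17.4 and 4.39 CPM at steady state. Clec4a2 (-1.35) and Clec7a, the beta-glucan receptor Dectin-1 (-2.13), were called lower too. Against this trend, Clec4e, which encodes the mycobacterial glycolipid receptor Mincle, rose from 13.1 and 10.6 CPM to 932 and 509 CPM (log2 fold change 5.92 ± 0.50, adjusted p = 0.00372), and its partner Clec4d rose from 144 and 145 CPM to 912 and 527 CPM (log2 fold change 2.31 ± 0.51, adjusted p = 0.0422). The calls of Cd209a, Clec7a and Clec4d were lost without steady-state replicate 1, steady-state replicate 2 or LPS replicate 1 (adjusted p 0.0527 to 0.246), those of Mrc1 and Clec4a2 without either steady-state library (adjusted p 0.0768 to 0.155), and that of Clec4b1 without steady-state replicate 1 (adjusted p 0.0543). Mgl2, Clec10a and Clec4e kept their calls without each of the 4 libraries.

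Scavenger receptors moved in both directions. Of the scavenger and efferocytosis list, 2 higher and 4 lower of 19 tested members were called (median -1.21). The shares called were 10.5% and 21.05%, against 3.0% and 3.49% of all genes. Mfge8, which bridges dying cells to integrins, stood at 1441 and 1291 CPM at steady state and 296 and 516 CPM with LPS (log2 fold change -1.75 ± 0.39, adjusted p = 0.0452), and its receptor chain Itgb5 fell by 2.18 on the log2 scale. Colec12, a collectin scavenger receptor, stood at 19.9 and 28.0 CPM at steady state and 3.57 and 3.40 CPM with LPS (log2 fold change -2.78 ± 0.28, adjusted p = 0.00464). Cd163, the haemoglobin receptor, went from 86 reads to 2, a ratio of 42.86 (95% counting interval 11.51 to 359.6). Marco, by contrast, stood at 1.16 and 5.06 CPM at steady state and 129 and 40.0 CPM with LPS (log2 fold change 4.73 ± 0.84, adjusted p = 0.0221), and Olr1, LOX-1, was called higher (2.81). The calls of Mfge8, Cd163 and Olr1 were lost without steady-state replicate 1, steady-state replicate 2 or LPS replicate 1 (adjusted p 0.0520 to 0.236), that of Itgb5 without steady-state replicate 1 (adjusted p 0.0688), and that of Marco without either steady-state library (adjusted p 0.0721 to 0.145). Colec12 kept its call without each of the 4 libraries.

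All 3 chains of C1q, the opening component of the classical complement pathway, fell together. C1qb stood at 788 and 597 CPM at steady state and 9.79 and 28.8 CPM with LPS (log2 fold change -5.15 ± 0.90, adjusted p = 0.0205), C1qa at 289 and 222 CPM at steady state and 5.55 and 13.3 CPM with LPS, and C1qc at 416 and 343 CPM at steady state and 7.41 and 19.9 CPM with LPS (adjusted p = 0.00773 and 0.0138). In each chain LPS replicate 2 kept more than replicate 1, and both lay far below steady state. Cfp, properdin, fell from 483 and 358 CPM to 96.4 and 70.1 CPM (log2 fold change -2.34 ± 0.33, adjusted p = 0.0107). C5ar1, the C5a receptor, fell by 2.77. With Cfb and C3 higher, the complement list had 2 higher and 6 lower of 12 tested members called (median -1.87). The shares called were 16.7% and 50.0%, against 3.0% and 3.49% of all genes. Of 7 tested Fc receptor genes, 2 were called, both lower (28.6%, against 3.49% of all genes): Fcrls, at 98 and 45.5 CPM at steady state and 0.397 and 0.124 CPM with LPS (log2 fold change -8.28 ± 0.78, adjusted p = 0.00441), and Fcgrt, the neonatal Fc receptor (-1.71). The list's median was 0.32, and 4 of its members had a positive log2 fold change and 3 a negative one. Fcer1g (1.22), Fcgr2b (1.15) and Fcgr3 (1.01) were not called. The calls of C1qb, C5ar1 and Fcgrt were lost without steady-state replicate 1, steady-state replicate 2 or LPS replicate 1 (adjusted p 0.0504 to 0.242), those of C1qc, Cfp and C3 without either steady-state library (adjusted p 0.0524 to 0.230), and that of C1qa without steady-state replicate 1 (adjusted p 0.0594). Cfb and Fcrls kept their calls without each of the 4 libraries.

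Ccr2, the receptor that brings monocytes out of the bone marrow (chr9:124101918-124109140), had the lowest fold of any called gene whose log2 CPM averaged 3 or more. It stood at 637 and 324 CPM at steady state and 1.06 and 1.18 CPM with LPS (log2 fold change -8.72 ± 0.82, adjusted p = 0.00441). The LPS libraries were alike at about 1 CPM. Of the inflammatory receptor list, 2 higher and 4 lower of 14 tested members were called (14.3% and 28.6%, against 3.0% and 3.49% of all genes). Cxcr2, a neutrophil receptor, went from 103 reads to 1, a ratio of 102.7 (95% counting interval 18.02 to 4094), with 1.16 and 6.77 CPM at steady state, higher in the replicate that held more granulocyte transcripts. The formyl peptide receptor gene Fpr2 rose from 4.35 and 7.06 CPM to 117 and 198 CPM (log2 fold change 4.78 ± 0.60, adjusted p = 0.00781), and Ccrl2, a receptor that presents chemerin, from 40.5 and 32.7 CPM to 878 and 281 CPM (log2 fold change 3.99 ± 0.69, adjusted p = 0.0202). The calls of Fpr2 and Ccrl2 were lost without either steady-state library (adjusted p 0.0654 to 0.159), that of Cxcr2 without steady-state replicate 1, steady-state replicate 2, LPS replicate 1 or LPS replicate 2 (adjusted p 0.0512 to 0.226), and that of C5ar1 without steady-state replicate 1, steady-state replicate 2 or LPS replicate 1 (adjusted p 0.0520 to 0.236). Ccr2 kept its call without each of the 4 libraries.

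Markers of macrophages and of monocyte-derived cells were lower with LPS for the most part, as were some of other cells. Of 13 macrophage markers, 7 were called lower and 1, Cd14, higher, against 3.49% and 3.0% of all genes. Of 9 markers of type 2 conventional and monocyte-derived dendritic cells, 6 were called lower and 0 higher. Both LPS libraries were below both steady-state libraries for 9 of the 13 and 8 of the 9, against 29.1% of all genes. The same held for 6 of 8 markers of type 1 conventional dendritic cells and 6 of 10 dendritic cell markers. It held for 6 of 9 neutrophil and 5 of 5 eosinophil markers tested. It held for 1 of 6 plasmacytoid dendritic cell, 2 of 5 B cell and 2 of 5 mast cell and basophil markers. Lyz2, the lysozyme gene of myeloid cells, stood at 16438 and 14342 CPM at steady state and 2256 and 2057 CPM with LPS (log2 fold change -2.84 ± 0.46, adjusted p = 0.0165), the greatest loss in CPM of any called gene. Mmp12, macrophage elastase, stood at 5389 and 4138 CPM at steady state and 1099.7 and 552 CPM with LPS (log2 fold change -2.53 ± 0.48, adjusted p = 0.0266), and Itgam, the integrin chain CD11b, at 1222 and 1135 CPM at steady state and 396 and 396 CPM with LPS (log2 fold change -1.57 ± 0.31, adjusted p = 0.0307). In each of these 3 genes the libraries of a group were within about 2-fold of each other. The macrophage receptors Emr1 (F4/80, now Adgre1) and Csf1r were not called: Emr1 stood at 509 and 416 CPM at steady state and 1509 and 843 CPM with LPS, above steady state (adjusted p = 0.104), and Csf1r at 1124 and 857 CPM at steady state and 657 and 386 CPM with LPS (adjusted p = 0.154). The part of a change in the cells present in these values was not tested. Of the transcription factors, Cebpa, the myeloid lineage factor, stood at 152 and 134 CPM at steady state and 30.3 and 36.6 CPM with LPS (log2 fold change -2.10 ± 0.27, adjusted p = 0.00819). Tfec (-1.71) and Cebpe (-1.89) were also called lower, and Gfi1, a repressor, was called higher (3.41), with 6.35 and 3.53 CPM in the LPS libraries. Among dendritic cell lineage factors 2 of 19 were called, both lower (10.5%, against 3.49% of all genes): Mycl1 (-3.17) and the GM-CSF receptor chain Csf2ra (-1.35). Zbtb46 and Flt3 had log2 fold changes of -0.57 and -1.91 (adjusted p = 0.424 and 0.271). The calls of Lyz2, Mmp12, Cebpa, Gfi1 and Mycl1 were lost without either steady-state library (adjusted p 0.0539 to 0.180), and those of Itgam, Tfec, Cebpe and Csf2ra without steady-state replicate 1, steady-state replicate 2 or LPS replicate 1 (adjusted p 0.0603 to 0.198).

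Of 33 lysosomal genes 3 were called, all lower (9.09%, against 3.49% of all genes): the mannosidase gene Man2b1, at 1263 and 965 CPM at steady state and 231 and 204 CPM with LPS (log2 fold change -2.36 ± 0.30, adjusted p = 0.00823), the glucuronidase gene Gusb (-2.33) and the acid lipase gene Lipa (-1.41). The list's median was -0.56, and 17 of 33 members (51.5%, against 29.1% of all genes) were below both steady-state libraries in both LPS libraries. Of 16 matrix proteases and inhibitors 4 were called, all lower: Mmp12, Mmp8 (-1.56), Mmp19 (-3.29) and Timp2. Timp2, a metalloproteinase inhibitor, stood at 105 and 111 CPM at steady state and 16.0 and 12.7 CPM with LPS (log2 fold change -2.91 ± 0.26, adjusted p = 0.00372). Of 39 cell cycle genes, 2 were called lower, the cyclin genes Ccnb2 (78 reads against 2, a ratio of 38.87 with a counting interval of 10.41 to 326.6) and Ccnd1 (-2.44), and 1 higher, Cdk6 (2.31), with a list median of -0.55. The cell cycle counts of called genes were near the shares of all genes called, 3.0% higher and 3.49% lower. Both LPS libraries were nonetheless below both steady-state libraries for 19 of the 39 (48.7%, against 29.1% of all genes). They were above both for 4 (10.3%, against 27.5%). Among purine genes, the adenosine receptor gene Adora2b (2.82) and P2ry14 (2.27) were called higher, and P2ry6 (-1.58), Adora3 (-2.38) and the ATP-gated channel gene P2rx7 (-2.51) lower. The shares of the purine list were 15.4% and 23.1%. Of 26 integrin and motility genes, Itgav rose (1.76) and Itgam, Itgb7 (-2.64), Rhoh (-1.74) and Myo1e (-1.21) fell. The share called higher, 3.85%, was near that of all genes, and the share called lower was 15.4%. The calls of Gusb, Mmp12, Mmp8, Mmp19, Adora2b, P2ry14, P2ry6, Itgav, Itgb7 and Rhoh were lost without either steady-state library (adjusted p 0.0539 to 0.244), those of Lipa, Ccnb2, Ccnd1, Cdk6, Adora3, P2rx7, Itgam and Myo1e without steady-state replicate 1, steady-state replicate 2 or LPS replicate 1 (adjusted p 0.0600 to 0.258), and that of Man2b1 without steady-state replicate 1 (adjusted p 0.0740). Timp2 kept its call without each of the 4 libraries.

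**Figure D3:**
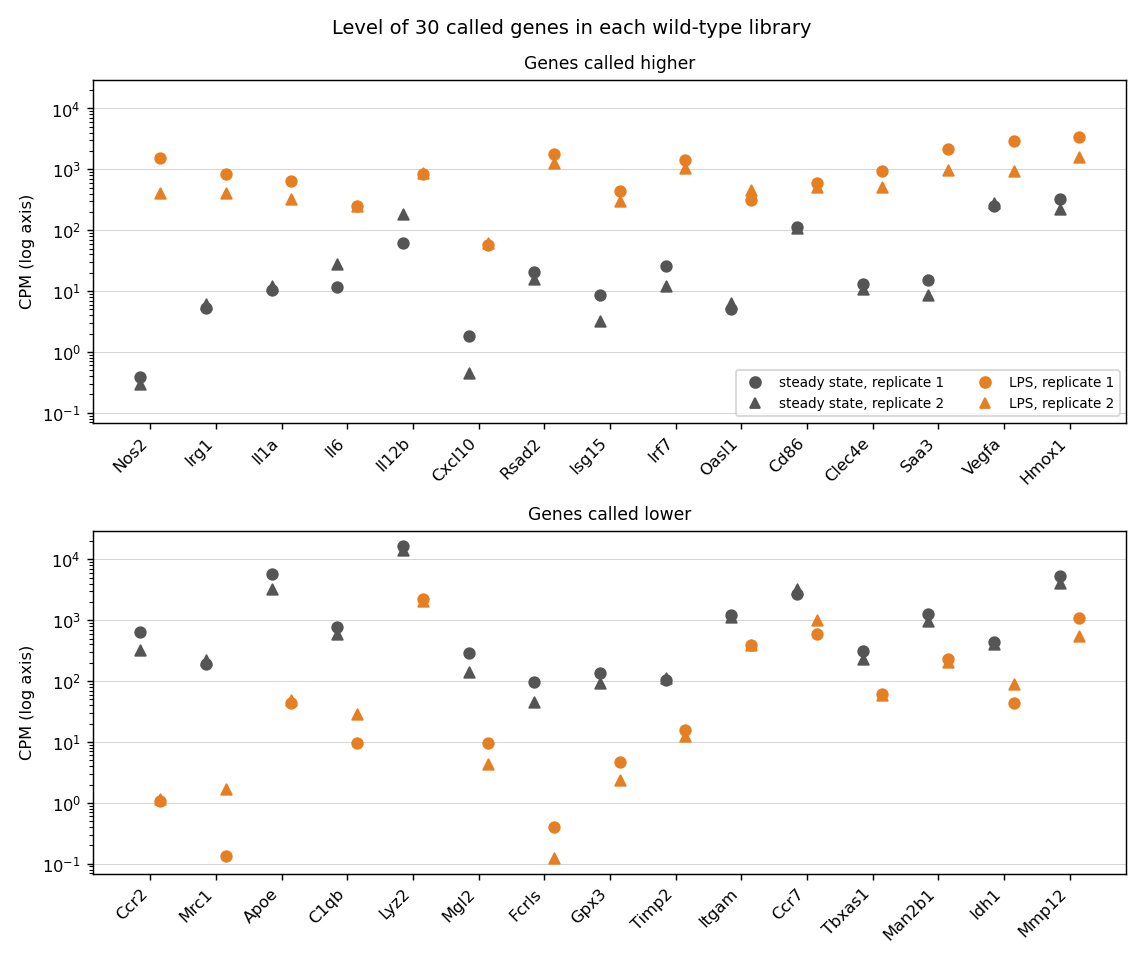
CPM on a log axis (vertical) of 30 called genes (horizontal) in each of the 4 WT libraries, with circles for replicate 1 and triangles for replicate 2, grey at steady state and orange with LPS. No gene overlaps between the groups; Nos2 goes from under 1 CPM to 1540.4 and 401 CPM, and Ccr2 from 637 and 324 CPM to about 1 CPM.

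Several genes with large folds belong to none of the 40 gene lists. Of those below, Spib is in the marker list of plasmacytoid dendritic cells. Siglec5 was counted in that of eosinophils, where it was the 1 called member of 5 tested. Enpp2, which encodes autotaxin, the enzyme that makes lysophosphatidic acid, stood at 0.676 and 0.446 CPM at steady state and 192 and 545 CPM with LPS (log2 fold change 9.36 ± 1.26, adjusted p = 0.00971). Ly6i and Ly6c2, Ly6 family surface proteins of myeloid cells, stood at 1.16 and 1.78 CPM at steady state and 347 and 245 CPM with LPS, and at 1.06 and 3.87 CPM at steady state and 291 and 177 CPM with LPS (adjusted p = 0.00279 and 0.00499). These 2 genes are close relatives, and their share of common reads is not known. Orm1, the acute-phase orosomucoid, stood at 0.579 and 1.12 CPM at steady state and 168 and 72.0 CPM with LPS (log2 fold change 7.09 ± 0.73, adjusted p = 0.00464). Hilpda, a lipid droplet protein induced by hypoxia, stood at 13.5 and 10.3 CPM at steady state and 1498 and 138 CPM with LPS (log2 fold change 6.10 ± 1.35, adjusted p = 0.0431), with LPS replicate 1 about an order above replicate 2. Kctd14 (6.23) completed the 20 steepest risers. Among the steepest fallers, Spib, an Ets factor of B cells and plasmacytoid dendritic cells, stood at 165 and 124 CPM at steady state and 0.661 and 5.01 CPM with LPS (log2 fold change -5.56 ± 0.77, adjusted p = 0.0102). Asgr2, a lectin chain first known from liver, stood at 123 and 38.4 CPM at steady state and 0.793 and 1.05 CPM with LPS (log2 fold change -6.4 ± 0.79, adjusted p = 0.00741), and Sepp1 (now Selenop), a selenium carrier, at 828 and 490.2 CPM at steady state and 42.3 and 27.8 CPM with LPS (log2 fold change -4.24 ± 0.41, adjusted p = 0.00454). Both steady-state values lay above both LPS values in all of these. The remaining ones were Sh2d5 (-5.27), Rab3il1 (-4.97), Slco5a1 (-4.71), Adam11 (-4.61), Bmp1 (-4.58), Siglec5 (-4.56), Slc4a8 (-4.55) and Serpinb1a (-4.34). The calls of Enpp2, Kctd14, Spib, Slco5a1, Adam11, Siglec5 and Slc4a8 were lost without either steady-state library (adjusted p 0.0578 to 0.170), that of Orm1 without steady-state replicate 1 (adjusted p 0.0594), and that of Hilpda without steady-state replicate 1, steady-state replicate 2 or LPS replicate 1 (adjusted p 0.0641 to 0.251). Ly6i, Ly6c2, Asgr2, Sepp1, Sh2d5, Rab3il1, Bmp1 and Serpinb1a kept their calls without each of the 4 libraries.

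Gains in CPM named further abundant genes. Thbs1, thrombospondin-1, stood at 967 and 1586 CPM at steady state and 4571 and 6811 CPM with LPS (log2 fold change 2.16 ± 0.43, adjusted p = 0.0311). Tnfrsf1b, the TNF receptor 2, stood at 623 and 708 CPM at steady state and 2269 and 2571 CPM with LPS (log2 fold change 1.86 ± 0.36, adjusted p = 0.0292), and Tgm2, a transglutaminase, at 504 and 399.6 CPM at steady state and 2888 and 1360.0 CPM with LPS (log2 fold change 2.23 ± 0.46, adjusted p = 0.0337). Grina, a protein that opposes cell death, rose from 303 and 267 CPM to 4400.0 and 1630.0 CPM (log2 fold change 3.40 ± 0.57, adjusted p = 0.0182). For these 4 genes neither LPS library came near a steady-state value. Rn45s, the precursor of ribosomal RNA, stood at 724 and 1191 CPM at steady state and 3316 and 4122 CPM with LPS (log2 fold change 1.96 ± 0.38, adjusted p = 0.0286). Its part in the values of other genes was not tested. The calls of Thbs1, Tnfrsf1b, Grina and Rn45s were lost without either steady-state library (adjusted p 0.103 to 0.241), and that of Tgm2 without steady-state replicate 1, steady-state replicate 2 or LPS replicate 1 (adjusted p 0.0535 to 0.216).

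The 2 LPS libraries differed from each other along some of the same programmes. A gene counted as different when CPM + 0.5 differed by more than 2-fold, as 11.55% of all genes did upwards in replicate 1 and 16.95% in replicate 2. Replicate 1 was the higher for 12 of 24 glycolysis and hypoxia genes and replicate 2 for 1. The reverse held for 16 and 1 of the 40 interferon-stimulated genes, 13 and 2 of the 25 maturation genes, and 9 and 0 of the 15 interferon-inducible GTPases. The 2 heat shock genes Hspa1a and Hspa1b, near-identical copies that respond to protein damage, stood at 1.16 and 1.49 CPM at steady state and 273 and 9.28 CPM with LPS, and at 2.03 and 1.86 CPM at steady state and 392 and 10.6 CPM with LPS, and were not called (adjusted p = 0.0516 and 0.0577). They were far higher in LPS replicate 1 than in any other WT library. Of the 14 heat shock and chaperone genes tested, 1 was called, Hsph1, at 60.7 and 59.9 CPM at steady state and 451 and 187 CPM with LPS (log2 fold change 2.40 ± 0.48, adjusted p = 0.0307), and its call was lost without either steady-state library (adjusted p 0.213 and 0.187). Gdf15 and Gadd45g, stress response genes, stood at 158 and 9.34 CPM and at 559 and 35.0 CPM in LPS replicates 1 and 2. Adcy6, an adenylate cyclase, stood at 669 and 923 CPM at steady state and 25.9 and 406 CPM with LPS, and Slc27a3, a fatty acid transport protein, at 134 and 185 CPM at steady state and 13.5 and 312 CPM with LPS, both lowest in LPS replicate 1. With 1 library on each side there is no test of this difference.

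**Figure D4:**
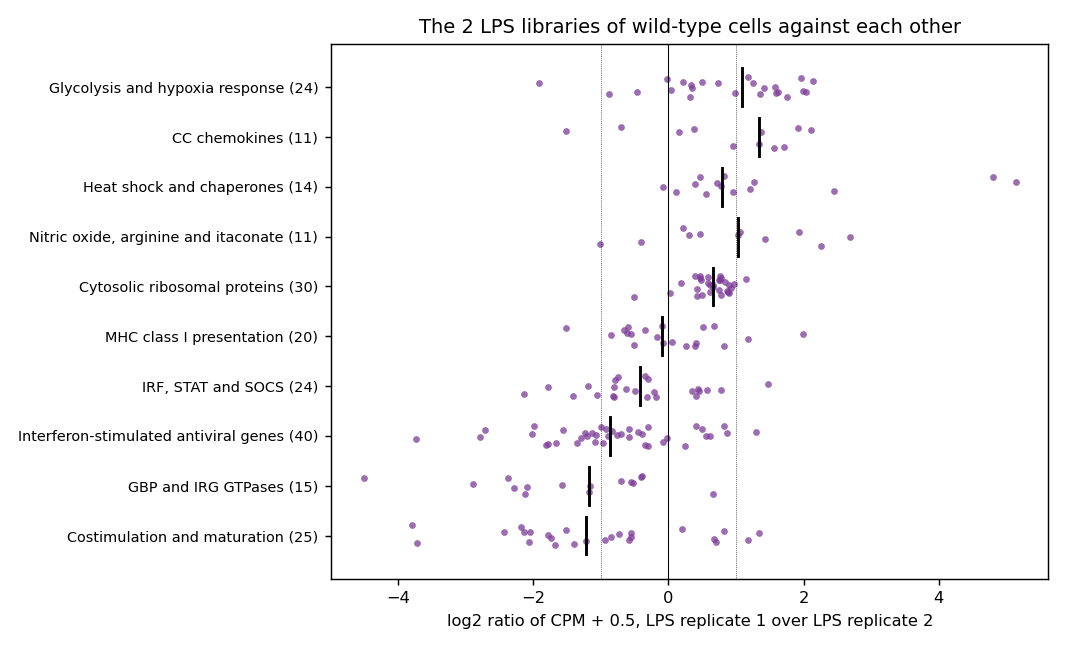
Log2 ratio of CPM + 0.5 in LPS replicate 1 over LPS replicate 2 (horizontal) for each tested member of 10 gene lists (rows), chosen after their values were seen, with the median as a black bar and 2-fold marked by dotted lines. Glycolysis and hypoxia genes lie to the right (median 1.09), and interferon-stimulated, GTPase and maturation genes to the left (-0.86, -1.17 and -1.22).

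The same comparison in Gata1 KO cells, which shares no library with it though both come from 1 fit, moved the called genes in the same direction for the most part. Of the 373 genes called higher in WT, 358 (96.0%) had a positive log2 fold change in KO, and of the 434 called lower, 423 (97.5%) had a negative one, beside 79.4% of all genes tested with the same sign in both. The KO comparison called 659 genes higher (5.30%) and 804 lower (6.46%). It shared 265 genes called higher with WT, which are 71.0% of the WT and 40.2% of the KO list, and 287 called lower, which are 66.1% and 35.7%. Rsad2 stood at 5.97 and 12.7 CPM at steady state and 672 and 1427 CPM with LPS in KO, and Ccr2 at 648 and 835 CPM and 8.81 and 2.14 CPM, both with the order of the WT groups. Called in opposite directions was 1 gene: Tspan13, a tetraspanin, rose in WT from 56.2 and 76.3 CPM to 199.6 and 228 CPM and fell in KO from 45.1 and 51.0 CPM to 15.2 and 17.8 CPM (log2 fold changes 1.69 and -1.54, adjusted p = 0.0119 and 0.0140 with edgeR).

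The difference between the 2 responses, tested as an interaction with edgeR, was called for no gene (0% of 12442), with 797 genes at an unadjusted p under 0.05 and a smallest adjusted p of 0.337, that of Tspan13. DESeq2 called 113 genes. Cd86 had log2 fold changes of 2.34 in WT and -0.06 in KO (adjusted p of the interaction 0.416). Il12b had 2.79 and 0.11 (0.540), and Il6 3.69 and 1.48 (0.540). Lyz2 had -2.84 and -0.27 (0.532), and Gpx3 -5.04 and -1.05 (0.377). Without a steady-state library of WT the call of Tspan13 in WT was also lost (adjusted p = 0.122 without replicate 1 and 0.0654 without replicate 2).

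**Figure D5:**
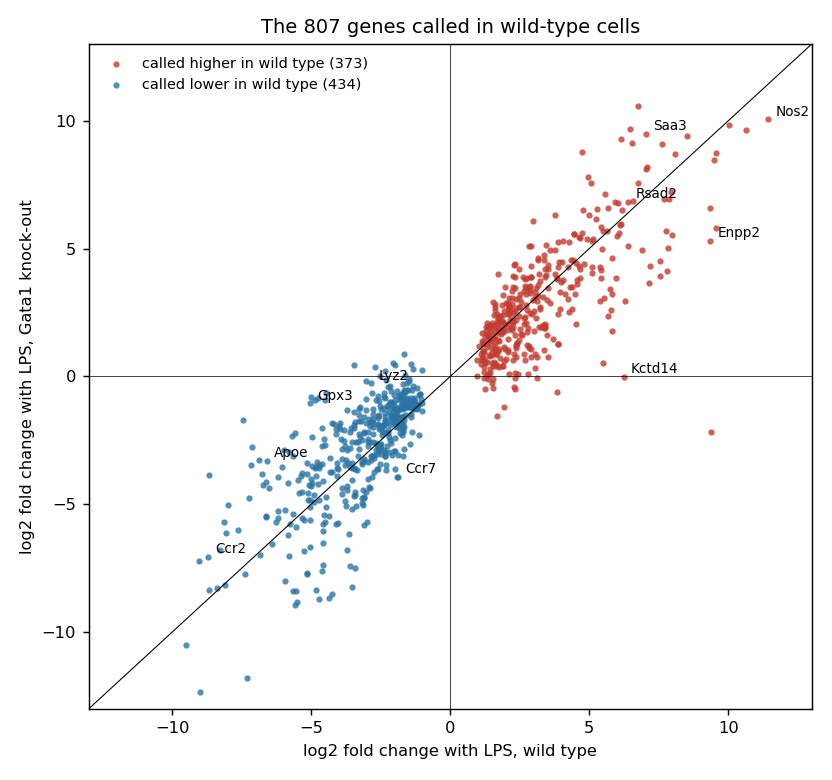
Log2 fold change with LPS in Gata1 KO cells (vertical) against that in WT cells (horizontal) for the 807 genes called in WT, with the line of equal change. Most points lie in the quadrants of shared direction; Kctd14, at 6.23 in WT and -0.01 in KO, and Lyz2 lie near the line of no change in KO.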

How the data were processed

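Per the labels' protocols, purification used the RNeasy plus mini kit and library preparation the unstranded TruSeq RNA v2 kit. The authors deposited unnormalized read counts for 23420 gene symbols. Per the submitters' processing notes, the genome build was mm10 and the tools included edgeR 3.6.8, TopHat2 2.0.8, and featureCounts with Subread 1.4.3, with no roles given. The counting of shared reads is not given, so overlapping genes and near-identical families (Ly6, Oas, Slfn, Ifi200, Gbp and H2 genes) are uncertain. No batch is given in the labels or the header. Counts were filtered with filterByExpr (minimum count 10, minimum total 15), scaled with TMM and tested two-sided with edgeR 4.0.16 in R 4.3.3, with 1 coefficient per group over all 8 libraries (4 residual and 3.40 prior degrees of freedom). CPM uses the scaled library sizes, and SE is the log2 fold change over the square root of F. The procedure was run on simulated counts with the same spread for all genes and groups. That run cannot show how it behaves with the unequal spread of these groups. The 2 libraries of a group did not agree within sampling noise, with a chi-square of 44.1 (steady state) and 185 (LPS) per gene.

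Genes named are 10 chosen genes, the 20 highest and 20 lowest folds among called genes (log2 CPM averaging 3 or more, no overlap), the 10 greatest gains and losses in CPM, called members and up to 3 abundant uncalled members of 40 lists, markers of 12 lists with at least 10 CPM, and the 10 genes that differ most between the LPS libraries (log2 CPM averaging 5 or more). Others were chosen after their values were seen, and a few genes are not reported here. Members and lists were chosen with earlier results of these data known. Coordinates and promoters come from RefSeq for GRCm38 (mm10). Of the symbols, 21571 matched a current and 1713 an older symbol. Read intervals cover counting error only.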

Additional observations from a re-analysis of the deposited data

How the results depend on the processing

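With 2 libraries a group, the counts of called genes (373 higher, 434 lower) depended on which libraries informed the spread. Leaving out 1 WT library gave 33 to 1776 genes higher and 37 to 1853 lower, with the group left at 1 library assumed to vary like the other groups. A fit of only the 4 WT libraries gave 115 and 114, of which 115 and 110 were among the 807. The test without a filter on low counts gave 734 and 763 of 17366 genes, DESeq2 gave 940 and 1055 (including all 807), and an adjusted p under 0.01 gave 81 and 69. The counts stayed within 1.5 times under relative log expression factors (377 and 449), upper-quartile factors (344 and 432), a minimum CPM (374 and 434) and a robust fit (352 and 397). A minimum fold of 1.5 could not change the counts, as the smallest called log2 fold changes were 0.946 and -1.02. The interaction gave 3 genes without the filter and 113 with DESeq2. The log2 fold changes of Prkar2b and Slc27a3 ran from 1.03 and 0.98 without LPS replicate 1 to -3.0 and -3.56 without LPS replicate 2, against 0.11 and 0.03 with both. The cause was not tested.

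A fit with the replicate number as a block gave 434 genes higher and 553 lower, of which 332 and 377 were among the 807. Named genes that lost their calls in it were Adora3, Cflar, H2-K1, H2-M3, Hk2, Lbp, Lipa, Psmb9, St8sia1 and Stat5b. Deviations from the group means correlated at 0.26 between the WT groups, 0.11 between the KO groups, 0.17 between the steady-state groups and -0.60 between the LPS groups. The labels tie no number to an animal or day and there are only 2 pairs, so the numbers were not taken to pair the libraries.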
